A study of Mus musculus with 20 samples.

Results

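Combined states of 4 histone marks were described in hematopoietic stem cells (HSCs) of adult mouse bone marrow. The states were built from the peak lists of H3K4me3, H3K27ac, H3K4me1 and H3K27me3 on chromosomes 1 to 19. All 69323 peaks of the 4 lists were merged into regions wherever they shared at least 1 bp, and each region was named by the marks whose peaks it held. This gave 45967 regions, and each of the 15 possible combinations was found. The same rule gave 80812 regions in the fetal liver lists of the series, and 82670 when all 8 lists were merged together.

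The adult cells came from B6129SF1 mice aged 6 to 8 weeks, the fetal cells from B6129SF1 embryos at day 14.5, and neither label names an allele or agent. Both were sorted as cells without lineage markers and CD135 that carried Sca1 and cKit, a gate known to hold early multipotent progenitors beside long-term HSCs. Chromatin immunoprecipitation with sequencing (ChIP-seq) used 50000 cells per reaction. The lists are titled as combined and were read as calls on the 2 replicates of a group together, so no value below carries a replicate error and no test between groups was made. Intervals in parentheses are 95% exact Clopper-Pearson intervals over regions or peaks. They cover counting error, not variation between mice, and neighbouring regions are not independent. Read depth is unknown. The lists hold no expression values and gene positions of their build, mm9, were not used here, so the labelled cell type was not checked against marker genes and regions are given by position.

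Each mark is laid down by its own enzymes and has a typical place. H3K4me3 is deposited by SET1 and MLL complexes at promoters, H3K27ac by the acetyltransferases p300 and CBP at active promoters and enhancers, and H3K4me1 by MLL3 and MLL4 at enhancers and at the flanks of promoters. H3K27me3 is written by EZH1 or EZH2 within Polycomb repressive complex 2 and spreads over silent developmental genes. Acetylation and trimethylation use the same lysine and cannot sit on the same histone tail. A promoter with H3K4me3 and H3K27me3 is called bivalent, and an enhancer with H3K4me1 but no H3K27ac is often called primed.

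Most adult regions held a single mark, but most of the marked genome lay in regions with several. Regions with 1 mark numbered 29855, or 64.9% (64.5 to 65.4), and covered 14.8 Mb. Regions with 2 marks numbered 13628, those with 3 marks 2360, and those with all 4 marks 124. The regions with 2 or more marks made up 35.1% (34.6 to 35.5) of regions and 71.0% of the covered 51.1 Mb. Single-mark regions were narrow, with a median width of 276 bp against 2050 bp for the others. The share with 2 or more marks was 54.9993% when peaks were joined over gaps of up to 1 kb.

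Of the 15 combinations, 5 held 86.4% of the regions. The most frequent was H3K27me3 alone, the Polycomb-type state, with 18357 regions or 39.9% (39.5 to 40.4). This order turned when peaks were joined over gaps of up to 1 kb, where H3K4me3 with H3K27ac came first with 9237 regions and H3K27me3 alone had 4862. With peaks joined by overlap, the second was H3K4me3 with H3K27ac, the active promoter type, with 9876 regions or 21.5% (21.1 to 21.9). H3K4me1 alone followed with 6094 regions, H3K27ac alone with 3071 and H3K4me3 alone with 2333. Next came H3K27ac with H3K4me1, the active enhancer type, at 2236, the 3 marks H3K4me3, H3K27ac and H3K4me1 at 1601, and bivalent H3K4me3 with H3K27me3 at 1240. The other 7 combinations held 1159 regions together. The least frequent were H3K27ac with H3K27me3, at 14 regions, and the same pair with H3K4me1, at 2.

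**Figure D1:**
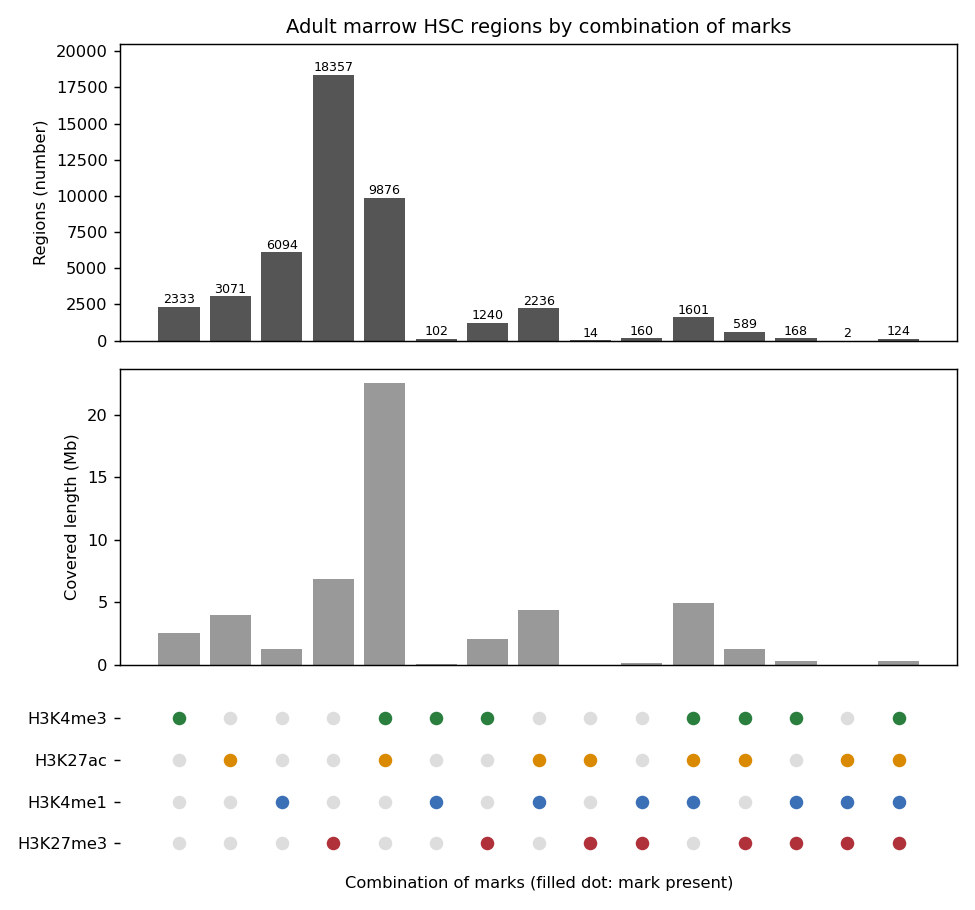
Number of adult regions (upper bars) and their covered length in Mb (lower bars) for each of the 15 combinations, which are marked by filled dots underneath. H3K27me3 alone has the tallest bar by number, at 18357 regions, and H3K4me3 with H3K27ac by length, at 22.5 Mb.

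The order by covered length differed from the order by number. H3K4me3 with H3K27ac covered 22.5 Mb, or 44.2% of all marked sequence, and H3K27me3 alone 6.89 Mb, or 13.5%. The triple of H3K4me3, H3K27ac and H3K4me1 covered 4.97 Mb, H3K27ac with H3K4me1 4.39 Mb and H3K27ac alone 4.03 Mb. H3K4me1 alone, with 6094 regions, covered 1.27 Mb. Counted base by base in place of by region, 51.8% of marked bases lay under 1 mark, 47.1% under 2, 1.06% under 3 and 0.0153% under all 4. Bases with H3K4me3 and H3K27ac alone made up 21.7 Mb, and bases with H3K4me3 and H3K27me3 alone 1.14 Mb.

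By median width, H3K4me1 alone and H3K27me3 alone were the narrowest combinations. Median widths were 184 bp for H3K4me1 alone (quartiles 160 and 229) and 262 bp for H3K27me3 alone (189 and 415). They were 1028 bp for H3K4me3 alone and 1140 bp for H3K27ac alone. Not every composite was wider than these, with medians of 885.5 bp for H3K4me1 with H3K27me3 and 1041 bp for H3K4me3 with H3K4me1. H3K4me3 with H3K27ac had a median of 2120 bp, bivalent regions 1574 bp, and H3K27ac with H3K4me1 1698.5 bp. The triple of H3K4me3, H3K27ac and H3K4me1 had a median of 2654 bp, the highest at this joining rule, and a longest region of 20770 bp. The order of widths depended on the rule. With gaps of up to 1 kb joined, the bivalent median was 2413.5 bp, above H3K4me3 with H3K27ac at 2129 bp and H3K27ac with H3K4me1 at 1975 bp. The triple then had 3030 bp, below H3K4me3 with H3K4me1 and H3K27me3 at 4126 bp, all 4 marks at 3726 bp and H3K4me1 with H3K27me3 at 3125 bp. Width and number of marks are tied by the rule, which joins overlapping peaks.

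**Figure D2:**
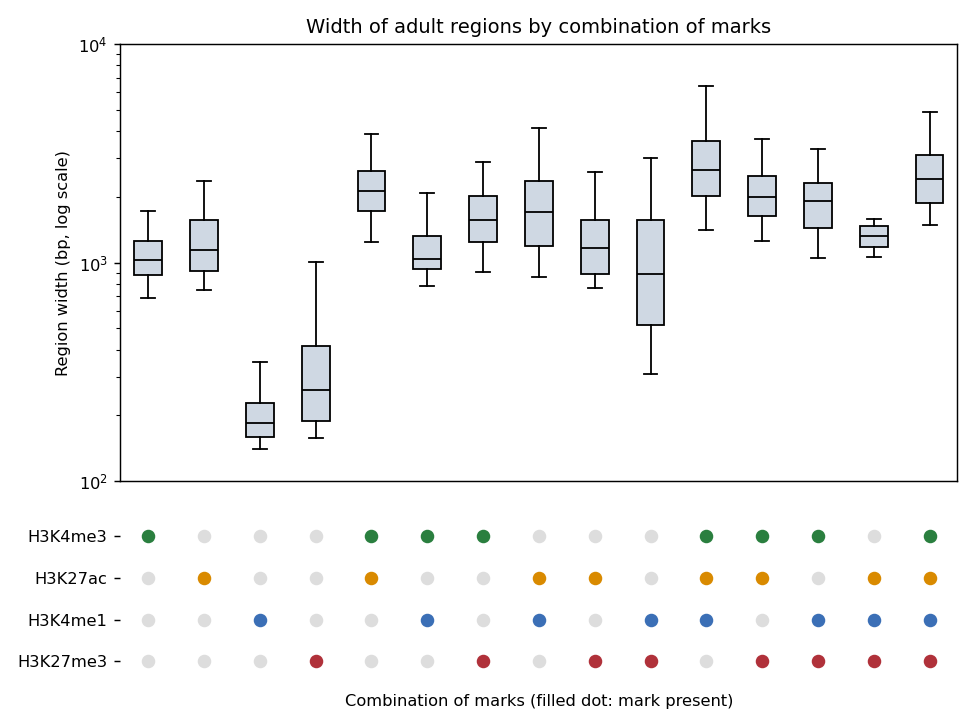
Width of adult regions in bp on a log scale, by combination (filled dots). Boxes span the quartiles, lines mark the medians and whiskers reach the 5th and 95th percentiles. H3K4me1 alone and H3K27me3 alone lie lowest, at medians of 184 and 262 bp.

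H3K4me3 regions were mostly acetylated. Of 16033 regions with H3K4me3, 12190 also held H3K27ac, which is 76.0% (75.4 to 76.7). H3K27me3 was held by 2121, or 13.2% (12.7 to 13.8), H3K4me1 by 1995, or 12.4% (11.9 to 13.0), and no other mark by 2333, or 14.6% (14.0 to 15.1). The partners depended on the score of the H3K4me3 peak, which is the peak caller's own value and is used here only as a rank within its list. In the highest score quartile 99.9% of H3K4me3 peaks lay in a region with H3K27ac and 1.19% in a region with H3K27me3. In the lowest quartile these shares were 31.7% and 26.6%, and 42.6% of the peaks had no partner. Width moved the same way: H3K27ac was present for 33.7% of the narrowest quartile of H3K4me3 peaks and 97.8% of the widest. The parts of score and width in these shares were not tested.

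Inside the 9876 regions with H3K4me3 and H3K27ac, both marks lay on top of each other. H3K4me3 covered the whole of the median region and H3K27ac 85.5% of it, and the median overlap was 1696 bp. Of the 10068 H3K27ac peaks there, 59.1% lay within an H3K4me3 peak, 31.6% crossed its edge and 9.27% spanned it. H3K27ac peak centres fell in the inner part of the H3K4me3 peak, up to the midpoint between its centre and its edge, in 95.3% of cases. H3K4me3 was the wider mark in 78.5% of these regions.

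Where H3K27ac was present, H3K4me1 lay at the sides of H3K4me3. Among the 1601 regions with H3K4me3, H3K27ac and H3K4me1, 1539 had a single H3K4me3 peak and entered the profile. H3K4me1 covered 2.21% of them at the centre of the H3K4me3 peak and 10.6% at 1000 bp from it, the mean of both sides, which was its highest point. H3K4me3 and H3K27ac covered 56.2% and 59.97% of the same regions at that distance. Of the 2217 H3K4me1 peaks in all 1601 regions, 44.6% lay inside an H3K4me3 peak, 22.7% crossed its edge and 32.7% did not touch it. The H3K27ac peaks of these regions reached further out than those of regions without H3K4me1: 29.0% spanned the H3K4me3 peak, against 9.27%. A wide H3K27ac peak can join an H3K4me1 peak that does not touch H3K4me3. The reach of H3K27ac in these regions is therefore partly tied to the joining rule. In the 102 regions with H3K4me3 and H3K4me1 alone, H3K4me1 covered 21.6% at the centre, its highest point as the mean of both sides, and 2.94% at 1000 bp. By the joining rule, each H3K4me1 peak there overlaps an H3K4me3 peak, whose median width was 1019 bp, against 2102.5 bp in the triple regions. This contrast is therefore partly tied to the joining rule and to peak width, and the size of that part was not tested. With H3K4me3 and H3K27me3 as partners, H3K4me1 was at 10.3% at the centre and highest at 300 bp, with 15.2%. In the 120 regions with all 4 marks and a single H3K4me3 peak, H3K4me1 was at 3.33% at the centre. It was highest there at 500 bp, with 13.75%. At 1500 bp from the centre H3K27ac covered 30.5% of the triple regions and 10.5% of those with H3K4me3 and H3K27ac alone. H3K4me1 peaks were narrow throughout the adult list, with a median of 193 bp.

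**Figure D3:**
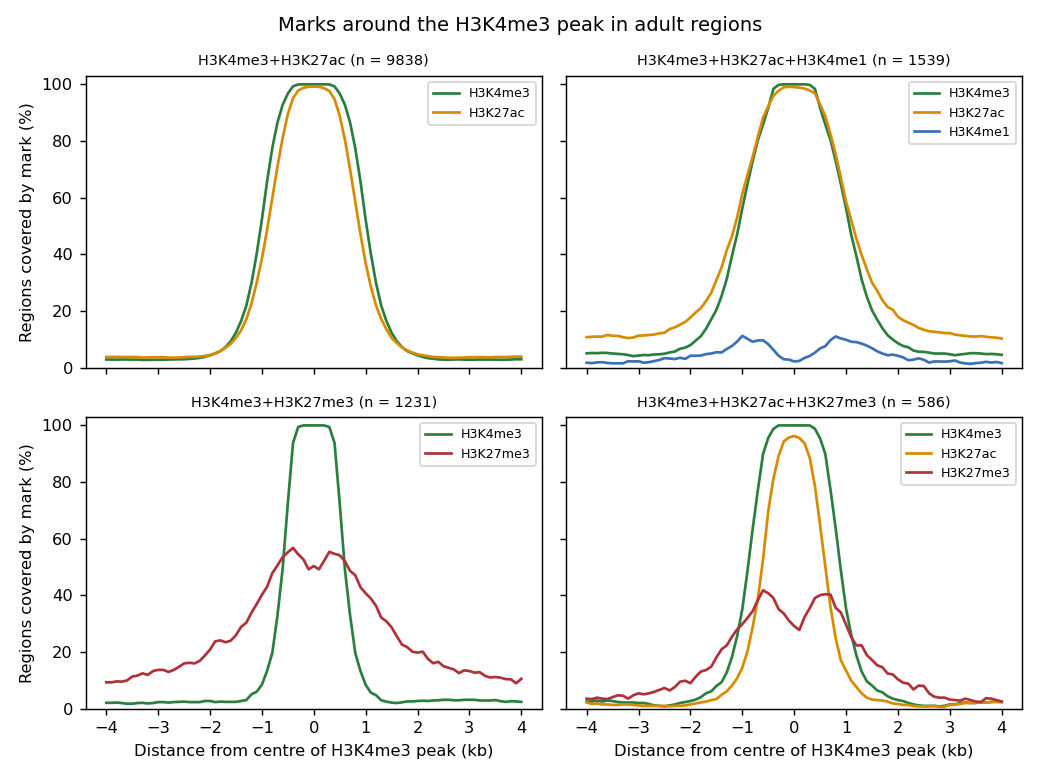
Share of adult regions (%) covered by each mark against distance in kb from the centre of the H3K4me3 peak, for 4 combinations and regions with a single H3K4me3 peak. H3K27ac follows H3K4me3, whereas H3K4me1 peaks at 1000 bp to the sides and H3K27me3 dips at the centre, from 41.1% at 600 bp to 29.2% where H3K27ac is also present.

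Acetylated regions without H3K4me3 numbered 5323, or 30.4% (29.7 to 31.1) of the 17513 regions with H3K27ac. The share was 20.3% among peaks at or above the median score of their list. H3K27ac alone accounted for 3071 of them and H3K27ac with H3K4me1 for 2236, which leaves 16 that also held H3K27me3. Regions with H3K4me1 were wider, at 1698.5 against 1140 bp, and their H3K27ac peaks scored higher, at median ranks of 33.1% and 18.4% of the list. Of the 2236 regions, 36.9% held 2 or more H3K4me1 peaks and the others a single one. Of all 3579 H3K4me1 peaks there, 87.1% lay within an H3K27ac peak. H3K4me1 covered a median of 19.3% of such a region and H3K27ac all of it.

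H3K4me1 alone was the state of 58.1% (57.2 to 59.1) of the 10487 regions with H3K4me1. H3K27ac was present at 37.8% (36.9 to 38.7), H3K4me3 at 19.02% (18.3 to 19.8) and H3K27me3 at 4.33% (3.95 to 4.74). Regions with H3K4me1 alone lay near acetylated ones: 44.9% had a region with H3K27ac within 5 kb, at a median distance of 6.97 kb. For regions with H3K4me3 alone this share was 13.2% and the median 35.4 kb. H3K4me1 peaks in regions with H3K27ac but not H3K4me3 had a median score rank of 62.4%, against 44.2% for H3K4me1 alone. These ranks stand for median scores of 69.1 and 59.9. Both are close to 50.01, the lowest score of the adult H3K4me1 list, whose median was 62.02. Requiring a mark to cover at least 200 bp left 5077 regions with H3K4me1, of which 47.6% held it alone.

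H3K27me3 was the mark that most often stood by itself. Of 20654 regions with H3K27me3, 18357, or 88.9% (88.4 to 89.3), held no other mark. H3K4me3 was present at 10.3% (9.86 to 10.7), H3K27ac at 3.53% (3.28 to 3.79) and H3K4me1 at 2.198% (2.002 to 2.41). The regions were small pieces of larger domains. Their median distance to the nearest region of the same state was 0.173 kb, and 89.4% had such a neighbour within 5 kb. Joining peaks over gaps of up to 1 kb reduced the H3K27me3-only regions from 18357 to 4862.

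Regions with H3K27me3 were therefore also chained into Polycomb domains over gaps of up to 5 kb, a step chosen after the spacing was seen. This gave 5242 domains. Of these, 2107 were a single region and 401 held 10 or more regions. These 401 held 39.1% of all regions with H3K27me3 and had a median span of 14945 bp, and called H3K27me3 covered 54.95% of their summed span. H3K4me3 was found in 51.4% (46.4 to 56.4) of the domains with 10 or more regions, in 42.3% (40.0 to 44.6) of those with 3 to 9, and in 28.3% (26.4 to 30.3) of single regions. The part of domain length in these shares was not tested.

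Bivalent regions belonged to the larger domains in a smaller share than H3K27me3 alone. Of the 1240 regions with H3K4me3 and H3K27me3 alone, 78.2% had another region with H3K27me3 within 5 kb, at a median of 0.162 kb, and 59.2% belonged to domains of 3 or more regions, against 84.0% of regions with H3K27me3 alone and 80.8% of all regions with H3K27me3. They stood as single regions in 21.8% of cases, against 8.18% for H3K27me3 alone. Domain size is counted in regions. A region with H3K27me3 alone is a single peak, whereas an H3K4me3 peak can join several H3K27me3 peaks into a bivalent region. The differences in these shares are therefore partly tied to the joining rule, and the size of that part was not tested. H3K4me3 in bivalent regions was narrow and low in its list, with a median peak width of 1194 bp and a median score rank of 19.02%, against 2031 bp and 64.3% where H3K27ac was the partner. H3K27me3, in turn, ranked higher in bivalent regions than alone, at medians of 66.5% and 46.2%. It also ranked higher than alone in every other combination with 100 or more such peaks, from 58.99% with H3K4me3 and H3K27ac to 90.1% with H3K4me1. Of the bivalent regions 65.2% held 2 or more H3K27me3 peaks. In the 1231 bivalent regions with a single H3K4me3 peak, H3K27me3 covered 50.4% at the centre of the H3K4me3 peak, 55.7% at 400 bp and 20.4% at 2000 bp, the mean of both sides. H3K27me3 shared at least 1 bp with H3K4me3 in 99.9% of all 2121 regions with both, at a median of 636 bp. The joining rule fixes this sharing in regions with these 2 marks alone. It can fail only where another mark joins the peaks.

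The bivalent share depended on weak peaks. It was 13.2% of H3K4me3 regions with all peaks, 7.51% with the same number of top-ranked peaks from each list, and 1.41% with peaks at or above their list median. Removing low-ranked H3K4me3 peaks removes this class by construction, since its H3K4me3 peaks rank low.

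H3K27ac and H3K27me3 met in 729 regions, in most cases together with H3K4me3. H3K4me3 was present in 713, of which 589 had these 3 marks and 124 all 4. The pair occurred in 14 regions without further marks and in 2 with H3K4me1. Called H3K27ac and H3K27me3 peaks shared bases in 642 of the 729, or 88.1% (85.5 to 90.3), with a median of 448.5 bp. Peaks of a pooled cell population do not show whether both marks sit in the same cell or on the same allele. In the 589 regions with 3 marks, H3K4me3 covered a median of 94.5% of the region, H3K27ac 63.3% and H3K27me3 35.1%. In the 586 of them with a single H3K4me3 peak, H3K27ac lay over its centre in 96.2% and H3K27me3 in 29.2%, rising to 41.1% at 600 bp. The H3K27ac peaks of this class were weak, at a median rank of 25.1%, and its H3K4me3 peaks had a median rank of 38.2%, between those of the bivalent and the active class.

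The pair of H3K4me1 and H3K27me3, a combination known from poised enhancers, occurred in 160 regions without H3K4me3 or H3K27ac. Their H3K27me3 peaks stood highest of any combination with 100 or more such peaks, at a median rank of 90.1% and a median width of 763.5 bp, against 262 bp for H3K27me3 alone. Their H3K4me1 peaks had a median rank of 39.6%. Among all H3K27me3 peaks, 1.71% of the narrowest quartile and 7.29% of the widest lay in a region with H3K4me1. The part of peak width in this state was not tested. Of the 160 regions 97.5% had another region with H3K27me3 within 5 kb, and 91.3% belonged to domains of 3 or more regions. Over all regions with H3K27me3 these shares were 89.8% and 80.8%.

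**Figure D4:**
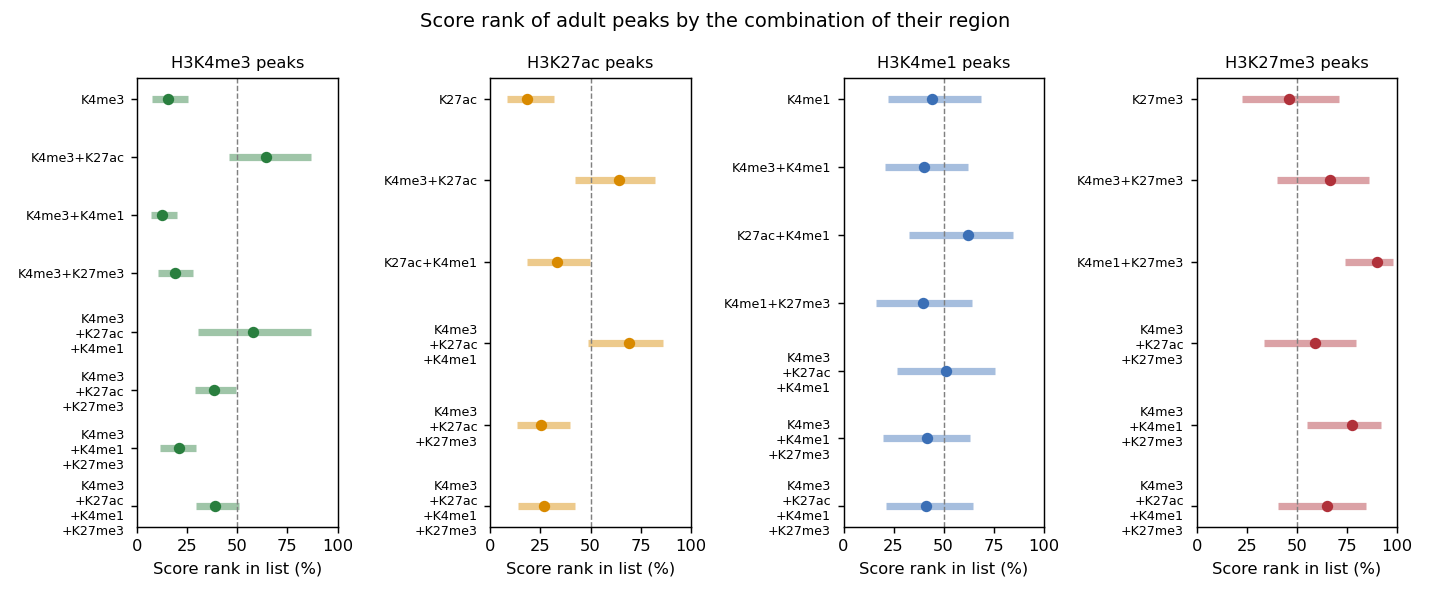
Score rank of adult peaks within their own list (%), by the combination of the region that holds them, 1 panel per mark. Points are medians and bars span the quartiles for combinations with 100 or more peaks. H3K4me3 peaks rank at 64.3% with H3K27ac and at 15.2% alone.

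Score ranks of H3K4me3 and H3K27ac peaks differed by combination. H3K4me3 peaks had median ranks of 64.3% with H3K27ac, 57.7% with H3K27ac and H3K4me1, 38.2% with H3K27ac and H3K27me3, 19.02% with H3K27me3 and 15.2% alone. H3K27ac peaks had median ranks of 69.0% with H3K4me3 and H3K4me1, 64.4% with H3K4me3, 33.1% with H3K4me1 and 18.4% alone. Scores pile up at 3100 and above. Such a score belonged to 34.1% of H3K4me3 peaks in regions with H3K27ac alone as partner and to 0.0801% of those in bivalent regions. Among peaks below this score, H3K4me3 with H3K27ac still ranked highest, at 69.0%, and H3K4me3 alone stood at 20.1%.

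Spacing set Polycomb-type states apart from the others. Bivalent regions had their nearest region with H3K27me3 at a median of 0.162 kb but their nearest region with H3K27ac at 67.3 kb. For H3K4me3 with H3K27ac these distances were 142 kb and 20.1 kb. H3K27ac alone lay 6.83 kb from the nearest other region with H3K27ac and 190.5 kb from the nearest with H3K27me3. Of the combinations with 100 or more regions, H3K27ac with H3K4me1 lay closest to further acetylation, at a median of 3.99 kb, and 0.492% of these regions had H3K27me3 within 5 kb. The most frequent states were often next to themselves along the chromosome. The next region was H3K27me3 alone for 80.8% of neighbours of H3K27me3 alone, beside 39.9% of all regions. For H3K4me3 with H3K27ac the values were 42.8% and 21.5%, for H3K4me1 alone 34.1% and 13.3%, and for H3K27ac with H3K4me1 16.5% and 4.86%. Bivalent regions were next to each other in 2.98% of cases, beside 2.70% of all regions, and had H3K27me3 alone as a neighbour in 65.6%. For H3K4me3 with H3K27ac and H3K27me3 the share was 0.679%, or 8 of 1178 neighbours, beside 1.28%. Each adjacent pair enters from both sides, so this count is small, and the difference was not tested. No region with all 4 marks was next to another, beside 0.270% of all regions. With 248 neighbours, this count is too small to be set apart from that share. Distances to the same state grow as a state becomes rarer and are not compared between states.

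Chromosomes differed in density and in their mixture of states. Chromosome 11 held 32.3 regions per Mb up to its last region and chromosome 16 held 12.3. The share of H3K27me3 alone was lowest on chromosome 16, at 23.2%, and highest on chromosome 5, at 46.0%, with a median of 39.98% over the 19 chromosomes. H3K4me3 with H3K27ac ran from 18.8% on chromosome 13 to 28.8% on chromosome 16, and H3K4me1 alone from 10.8% on chromosome 12 to 18.3% on chromosome 16. Bivalent regions without further marks took 1.96% to 3.87% of the regions of a chromosome. These shares are of all regions of a chromosome, so that they are not independent of each other.

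To set the adult states against the fetal lists of the same series, the marks of all fetal peaks that shared at least 1 bp with an adult region were collected. The same combination was found for 46.1% (45.6 to 46.5) of adult regions. A further 41.0% held all adult marks and at least 1 more in the fetal lists, and 6.84% overlapped no fetal peak. The added mark was mainly H3K4me1, for which the fetal list holds 92339 peaks on these chromosomes and the adult list 12502. With H3K4me1 left out at both stages, 81.1% (80.7 to 81.4) of 39911 adult regions had the same combination. With 1 list per mark and stage, stage and library cannot be told apart.

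The share with the same fetal marks varied by state when H3K4me1 was ignored. It was 87.1% (86.4 to 87.8) for H3K4me3 with H3K27ac, 86.4% (85.9 to 86.9) for H3K27me3 alone and 81.8% (79.5 to 83.9) for bivalent regions. The H3K27me3 lists differ in form. The adult list has 22831 peaks with a median of 280 bp over 9.31 Mb. The fetal list has 14579 peaks with a median of 1408 bp over 37.8 Mb. Several adult regions can thus meet the same fetal peak, which the intervals do not cover. The part of this difference in the shares was not tested. The share was lower for H3K27ac alone, at 70.5% (68.9 to 72.1), for H3K4me3 with H3K27ac and H3K27me3, at 51.3% (47.2 to 55.4), and for H3K4me3 alone, at 34.3% (32.4 to 36.3). Of the 2333 regions with H3K4me3 alone, 690 had fetal H3K27ac, 487 fetal H3K27me3, and 622 no fetal H3K4me3. Of the 589 regions with H3K4me3, H3K27ac and H3K27me3, 331 had fetal H3K27ac, while 249 had fetal H3K4me3 and H3K27me3 without H3K27ac. Of the 6094 regions with adult H3K4me1 alone, 2628 had fetal H3K4me1 alone, 2042 fetal H3K4me1 with H3K27ac and no other mark, and 1068 no fetal peak. Fetal H3K27me3 was found at 729 of the 9876 regions with adult H3K4me3 and H3K27ac, or 7.38%.

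**Figure D5:**
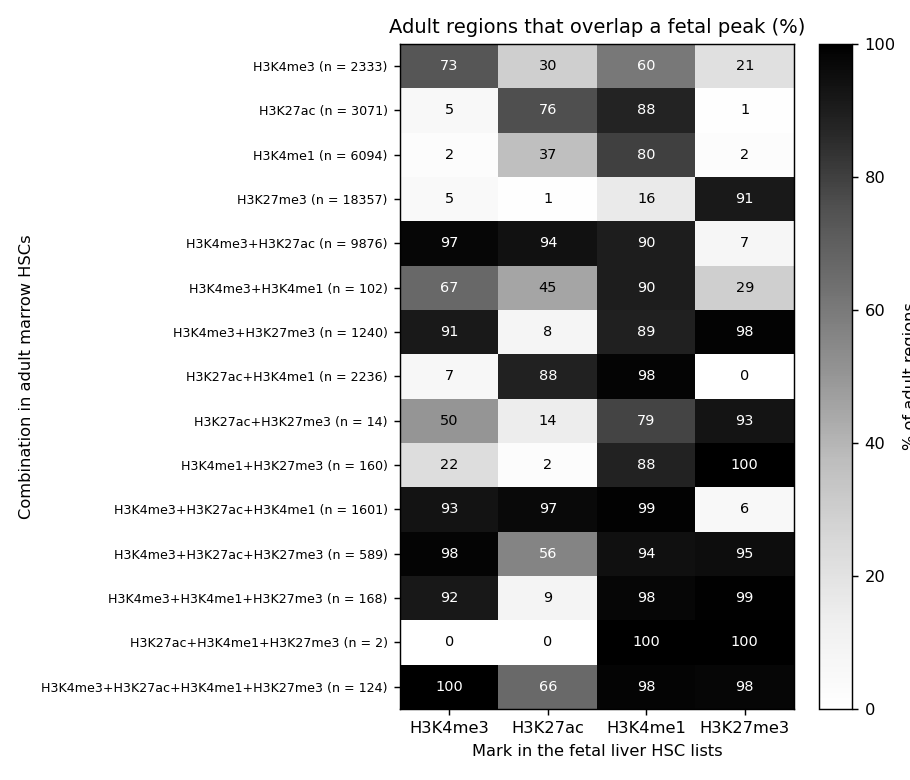
Percentage of adult regions of each combination (rows, with their number) that share at least 1 bp with a fetal peak of each mark (columns). Darker cells stand for higher shares, such as fetal H3K27me3 at 98.5% of adult bivalent regions and at 7.38% of regions with H3K4me3 and H3K27ac.

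The widest region of each combination shows how the states look at single places, given in mm9 coordinates counted from 1. The widest region of all lay on chromosome 6 from 52164726 to 52185495. It spanned 20770 bp with 2 H3K4me3 peaks over 20667 bp, 4 H3K27ac peaks over 18372 bp and 1 H3K4me1 peak of 186 bp, and it held no H3K27me3. In the fetal lists H3K4me3 and H3K27ac covered 19750 and 19493 bp of it and H3K27me3 3028 bp. The widest region with H3K4me3 and H3K27ac lay on chromosome 11 from 18906951 to 18922065, where 1 H3K4me3 peak covered all 15115 bp and 2 H3K27ac peaks 14685 bp. Both were also covered over most of their length by fetal H3K4me3 and H3K27ac.

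Acetylation with H3K4me1 and without H3K4me3 was widest on chromosome 17 from 84380399 to 84392990. There a single H3K27ac peak of 12592 bp held 10 H3K4me1 peaks over 2467 bp and no H3K4me3. Fetal H3K27ac covered 12491 bp of it and fetal H3K4me1 9916 bp. The widest region with H3K27ac alone, on chromosome 1 from 108410824 to 108415726, spanned 4903 bp and lay 29995 bp from its nearest neighbour. The widest with H3K4me1 alone, on chromosome 1 from 90154769 to 90157195, was covered by fetal H3K4me1 over all 2427 bp. H3K4me3 alone was widest on chromosome 13 from 21258384 to 21262388, at 4005 bp with a score in the pile-up. It belonged to 1 of the 3 runs of 3 regions of this state, the longest found with gaps of up to 5 kb.

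Among Polycomb-type states, the widest bivalent region lay on chromosome 11 from 21898766 to 21904068. Its 4 H3K27me3 peaks covered 5174 of 5303 bp and its H3K4me3 peak 1654 bp, and fetal H3K27me3 covered it whole. The widest with H3K27me3 alone was on chromosome 6 from 83659137 to 83664787, at 5651 bp. The widest region with H3K4me1 and H3K27me3, on chromosome 11 from 95865296 to 95869881, had different fetal marks. H3K27me3 covered all 4586 bp in the adult list and 931 bp in the fetal list, whereas fetal H3K4me3 covered 4450 bp and fetal H3K27ac 4436 bp, and neither had an adult peak there.

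Mixed regions with all 4 marks were widest on chromosome 4 from 48054579 to 48062080. This region of 7502 bp held 2 H3K4me3 peaks over 6436 bp, a high-ranking H3K27ac peak of 4386 bp at 99.8% of its list, and 6 H3K27me3 peaks over 3642 bp. H3K27ac and H3K27me3 shared 869 bp of it. All 4 fetal marks were present as well, with H3K27ac over 6880 bp. The widest region with H3K27ac and H3K27me3 and no further mark lay on chromosome 5 from 139472479 to 139475514, where both peaks shared 1521 of 3036 bp.

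The H3K27me3-only cluster with the most regions lay on chromosome 15 from 102726553 to 102879038. It held 188 such regions and 3 bivalent ones within 152486 bp, and called H3K27me3 covered 100177 bp, or 65.7%, of it. The fetal list had no H3K27me3 peak from 102731602 to 102880637, a stretch of 149036 bp. In that stretch the adult list had 188 H3K27me3 peaks over 99297 bp, with a median score rank of 71.8% and a highest of 99.3%. The fetal peaks on both sides carry consecutive numbers. H3K4me3 was listed there at both stages, with 3 adult peaks over 3259 bp and 3 fetal peaks over 3161 bp, and 20 H3K4me1 peaks were listed in the fetal list alone. The cause was not tested. The second-largest domain, on chromosome 2 from 74483948 to 74605395, held 127 regions with H3K27me3 over 83398 bp.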

How the data were processed

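ChIP-seq libraries of 4 marks and input were described in the labels as 20 samples in 10 groups, with 2 replicates each. The files used were 8 peak lists without header, 1 per mark and stage, whose titles call them combined. The score given per peak is the authors' value per peak, and its unit is not given in the sources used here. It was at least 50 in every deposited list. Per the submitters' processing notes, reads were aligned with Bowtie2 2.2.2 to mm9. Peak names carry the prefix MACS, and the caller's version, settings and control are not given in the sources used here. Of the adult and fetal peaks together, 1928 start beyond the last gene end of the GRCm38 table on 10 chromosomes, so that table's genes and promoter sequences were not used.

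Peaks were merged, labelled, ranked by score within their list (ties at the mean rank) and measured with pandas 2.3.3 and numpy 2.4.6 under Python 3.11.15; intervals used scipy 1.17.1 and plots matplotlib 3.10.9. On simulated data, 3000 of 3000 planted regions were recovered with their label. Distances are gaps between region edges. Regions named in the text are the widest of each combination, the widest in which H3K27ac and H3K27me3 share bases (also the widest with all 4 marks), and the H3K27me3-only cluster with the most regions, joined over gaps of at most 5 kb. The second-largest domain was named after its values were seen. The members, combinations and alternatives were chosen with earlier results of these data known. Alternatives kept the better-scoring peaks, took 12502 top-ranked peaks per list, joined peaks within 1 kb, required 200 bp of a mark, added X and Y, ranked scores below 3100, or left out H3K4me1. Single replicates, read coverage and inputs were not analysed here.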

Additional observations from a re-analysis of the deposited data

Results flagged for a closer look

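Adult peaks outside chromosomes 1 to 19 entered none of the descriptions above and lay over 3 in number on X and contigs, the limit set by a count of 0. On chromosome X there were 683 regions, of which 331 held H3K4me3 with H3K27ac, 183 H3K4me3 alone, 116 H3K27me3 alone and 14 H3K4me3 with H3K27me3. Unplaced contigs held 45 regions, 16 of them with H3K27me3 alone and 11 with H3K4me3 and H3K27ac. On Y there were 3 regions, all with H3K4me3 and H3K27ac.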

How the results depend on the processing

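No paired analysis was possible because the 2 replicates of a group share 1 list and nothing was tested. Leaving out single replicates was not run for the same lack of separate lists. Summary values outside their 95% interval, and summary counts changed by over 1.5 times, are given here, and the cause was not tested. With X and Y added, all 8 summary values run stayed the same. Leaving out H3K4me1 was chosen after the data were seen.

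With the better-scoring peaks there were 25459 regions, of which 31.4% held 2 or more marks and 51.7% had the same fetal combination. H3K27ac was at 87.7% and H3K27me3 at 1.41% of H3K4me3 regions. H3K4me3 was missing at 20.3% of H3K27ac regions, and the shares with a single mark were 77.2% for H3K4me1 and 97.5% for H3K27me3. With equal numbers of top-ranked peaks these 7 shares were 36.9%, 61.3%, 78.98%, 7.51%, 20.6%, 70.4% and 90.01%. With peaks joined within 1 kb there were 28844 regions and the shares were 54.9993%, 33.9%, 76.9%, 13.9%, 27.1%, 44.0% and 67.8%; the median width of H3K27me3-only regions was 269 bp. With 200 bp of a mark required, 41.4% held 2 or more marks, 41.5% had the same fetal combination, 12.3% of H3K4me3 regions held H3K27me3, and 47.6% of H3K4me1 and 86.4% of H3K27me3 regions held a single mark. Without H3K4me1, 34.1% held 2 or more marks and 81.1% had the same fetal combination. Among scores below 3100, H3K4me3 peaks with H3K27ac had a median rank of 69.0%. Of the values for single combinations, 19 moved and 19 stayed the same. With gaps of up to 1 kb joined, those that moved by over 1.5 times were the numbers of H3K27me3-only regions (4862) and H3K4me1-only regions (3786), and the median widths of bivalent regions (2413.5 bp), of H3K4me1 with H3K27me3 (3125 bp), of both with H3K4me3 (4126 bp) and of all 4 marks (3726 bp). Depth is unknown, so an absent mark means only that no peak was listed.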

Other observations

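A few regions lay close to the joining rule. Of 16112 regions with 2 or more marks, 384, or 2.38%, were held together somewhere by an overlap of at most 50 bp, the smallest being 1 bp. Among 45948 pairs of neighbouring regions, 3792, or 8.25%, were separated by at most 50 bp, and the smallest gap was 0 bp, where peaks touch without sharing a base.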
